A study of Mus musculus with 12 samples.

Results

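The genes described here are 10 regulators of mitosis, chosen by symbol: Cdk1, Ccna2, Ccnb1, Ccnb2, Aurka, Aurkb, Plk1, Birc5, Cenpm and Cdc20. All 10 were listed in both expression tables, among 23235 gene entries in liver and 24421 in mouse embryonic fibroblasts (MEFs). All 10 also passed the filter on low values in each tissue, among 12938 genes tested in liver and 13241 in MEFs. Cenpm was picked for its low level in G2A liver, so its liver difference is given as a description with no test. The other 9 were picked by function, with earlier results of these data known. RNA sequencing compared Rpt2 G2A/G2A with WT samples, in E12.5 fetal livers and in immortalized MEFs, none of them treated. As background, Rpt2 is a proteasome ATPase encoded by Psmc1, and the G2A allele replaces the glycine that carries its N-myristoyl lipid anchor. The livers were 3 G2A and 3 WT samples, described in the labels as littermate pairs, and the MEFs were 2 G2A and 3 WT libraries. Another labelled G2A MEF sample had no matching values among those used here, so it was not analysed. How the MEFs were immortalized, and whether their libraries came from separate lines or cultures, is not given in the sources used here, so p-values measure only the spread between these samples.

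Entry into mitosis is driven by the kinase Cdk1 bound to cyclin A2 and then to the B cyclins, with Plk1 and the Aurora kinases building the spindle and correcting chromosome attachment at kinetochores. Exit follows when Cdc20 directs the anaphase-promoting complex, a ubiquitin ligase, to the cyclins and securin, which the proteasome then destroys. The mRNAs of these genes are made mainly in dividing cells from late S phase into mitosis. The fetal liver is the main site of red cell production at this stage, so many of its dividing cells are erythroid precursors. In bulk tissue, fewer dividing cells and less RNA per cell cannot be told apart.

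Promoter windows are shown because the members moved together in liver and because mitotic promoters are known for paired CCAAT boxes, bound by NF-Y, and for the cell cycle homology region (CHR), bound by the MuvB complex. RefSeq windows on GRCm38.p6, from 250 bases before to 50 after the start site, were matched for 8 of the 10 genes; Ccna2 and Aurkb had no window. The stretches below run 5′ to 3′ along the gene's strand, from position -120 to -1 before the start, or from -180 to -61 for Cenpm, and capitals mark CCAAT (or ATTGG on the other strand), TTTGAA and TTCGAA.
Cdk1, chr10:69352913-69353032, minus strand: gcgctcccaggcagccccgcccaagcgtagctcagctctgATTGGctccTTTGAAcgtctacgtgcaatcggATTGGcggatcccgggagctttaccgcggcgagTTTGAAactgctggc
Ccnb1, chr13:100786487-100786606, minus strand: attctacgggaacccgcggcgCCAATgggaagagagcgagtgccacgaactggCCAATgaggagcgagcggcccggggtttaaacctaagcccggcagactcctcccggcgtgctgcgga
Ccnb2, chr9:70421555-70421674, minus strand: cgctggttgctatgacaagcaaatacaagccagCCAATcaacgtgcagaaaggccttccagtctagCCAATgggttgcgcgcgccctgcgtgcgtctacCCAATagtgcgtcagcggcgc
Cdc20, chr4:118437344-118437463, minus strand: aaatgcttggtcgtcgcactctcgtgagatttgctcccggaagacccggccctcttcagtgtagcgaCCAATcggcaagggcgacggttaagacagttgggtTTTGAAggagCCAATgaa
Aurka, chr2:172370571-172370690, minus strand: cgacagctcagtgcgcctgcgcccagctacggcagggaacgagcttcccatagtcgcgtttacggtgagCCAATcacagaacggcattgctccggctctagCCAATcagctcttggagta
Cenpm, chr15:82244397-82244516, minus strand: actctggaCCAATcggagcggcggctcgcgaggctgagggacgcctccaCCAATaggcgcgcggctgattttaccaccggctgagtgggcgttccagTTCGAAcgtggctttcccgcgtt

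On either strand of the whole 300-base windows, CCAAT was present in 7 of the 8 genes, against 37.4% of all 32851 RefSeq windows. TTTGAA was present in 5 of the 8, against 17.9% of all windows, and TTCGAA in 1 of the 8, Cenpm, against 1.56%. None of the 3 motifs overlaps another as searched. The CCAAT copies were spaced 32 bases apart in Aurka and Ccnb1, 33 and 33 in Ccnb2, and 32 between the nearer pair in Cdk1. In Cdc20 the copies lay 45 bases apart and in Cenpm 41. In Aurka, Plk1 and Ccnb2 a TTTGAA began after the start site, at positions 33, 31 and 5. The Birc5 window held none of the 3 letter strings, and a match or its lack describes these letters alone.

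In NCBIM37, the assembly also called mm9, GENCODE places Cenpm on chromosome 15 (82064209 to 82075177, minus strand), Birc5 on chromosome 11 (117710565 to 117717069, plus strand) and Ccnb2 on chromosome 9 (70255496 to 70269361, minus strand), all protein coding. No other annotated gene overlaps these 3, and 8 of the 10 members have no overlapping gene. The ends of Ccna2 and Cdc20 overlap Exosc9 and Elovl1 on the opposite strand, and since strand use in counting is not given, reads from the shared stretches cannot be told apart.

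Before the comparisons, 1 library in each tissue stood apart. On the first principal component of the livers (37.9% of the variance), G2A livers 1 and 2 lay at 30.6 and 34.9, G2A liver 3 at -7.91, and WT livers 1, 2 and 3 at -13.3, -23.3 and -21.1. On that of the MEFs (73.4%), G2A MEFs 1 and 2 lay at 51.5 and 55.2, the library labelled WT MEF 3 at 72.5, and WT MEFs 1 and 2 at -87.2 and -92. The main results are therefore given with and without these libraries. Psmc1, which carries the allele, had 145 to 161 FPKM in G2A livers and 178 to 181 FPKM in WT livers, and 10658 and 10913 normalized reads in G2A MEFs against 6485 to 8589 in WT MEFs; its level does not show the base change and so checks no label. Depth was 36415586 to 37695116 gene reads per MEF library and is unknown in liver, where FPKM totals were 792987 to 840762. Markers of hepatoblasts and red cells were present in every liver, with none of the listed ones at 0 throughout. In MEFs 6 red cell markers were at 0 in every library, among them Slc4a1 and Kel. No listed hepatoblast marker was at 0 in every MEF library. Alb had 305, 330 and 0 normalized reads in WT MEFs 1, 2 and 3, and 275 and 0 in G2A MEFs 1 and 2. The source of these reads was not tested.

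In fetal liver, all 10 mitotic genes were lower in G2A liver, by log2 fold changes of -0.28 (Cdk1) to -0.52 (Cenpm), with a median of -0.34 against 0.01 over all genes tested. For every member the 3 G2A livers lay below the 3 WT livers without overlap, as did 15.7% of all genes; the members were proposed with this contrast known, so the count supports nothing further. By limma, 0 of the 9 members tested passed an adjusted p of 0.05, which 0.00773% of all genes passed as lower and 0.0155% as higher, and all 9 had an unadjusted p under 0.05, as did 12.4% of all genes as lower. Without G2A liver 3, all 9 passed (adjusted p 0.00977 to 0.0225, median log2 fold change -0.42 over the 10), as did 12% of all genes as lower. That library was the highest G2A liver for each of the 9. Lower estimates for them without it follow from its removal and add no support.

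Cdk1, the kinase of mitotic entry, had 62.6, 61.9 and 64.9 FPKM in G2A livers 1, 2 and 3, against 77.3, 76.5 and 76.4 FPKM in WT livers 1, 2 and 3. Its groups were the tightest of the set relative to their means, with SDs of 1.58 FPKM in G2A and 0.497 FPKM in WT (n = 3 each). The log2 fold change was -0.28 (SE 0.05, limma adjusted p = 0.0902), and G2A liver 3 lay close to the other G2A livers.

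Ccna2, cyclin A2, which partners Cdk2 in S phase and Cdk1 at mitotic entry, had 181, 159 and 213 FPKM in G2A livers 1, 2 and 3, against 231, 226 and 236 FPKM in the WT livers. G2A liver 3 was the nearest to WT, and this cyclin had the largest adjusted p of the 9 (log2 fold change -0.33, SE 0.11, limma adjusted p = 0.161). Ccnb1, cyclin B1, had 107, 99.5 and 123 FPKM in the G2A livers, against 145, 145 and 141 FPKM in the WT livers. Its mean difference was the largest of the 3 cyclins (log2 fold change -0.39, SE 0.08, limma adjusted p = 0.104). Ccnb2, cyclin B2, had 120, 109 and 135 FPKM in the G2A livers, against 143, 150 and 160 FPKM in the WT livers (log2 fold change -0.32, SE 0.09, limma adjusted p = 0.137). The order of G2A livers was the same in all 3 cyclins, with liver 2 lowest and liver 3 highest.

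Among the mitotic kinases, Aurka, which acts at centrosomes and spindle poles, had 75.5, 71.2 and 90.7 FPKM in G2A livers 1, 2 and 3, against 95.8, 103 and 107 FPKM in the WT livers. G2A liver 3 was the nearest to the WT livers, without reaching them (log2 fold change -0.37, SE 0.10, limma adjusted p = 0.132). Aurkb, the kinase of the chromosomal passenger complex, had 65.2, 60.6 and 67.9 FPKM in the G2A livers, against 77.1, 80.2 and 80.4 FPKM in the WT livers (log2 fold change -0.29, SE 0.06, limma adjusted p = 0.0994). Here the G2A livers stayed closer together than for Aurka. Plk1, which drives centrosome maturation and mitotic entry, had 84.1, 85.3 and 91.5 FPKM in the G2A livers, against 101, 119 and 116 FPKM in the WT livers (log2 fold change -0.36, SE 0.08, limma adjusted p = 0.103). For Plk1 the WT livers varied more than the G2A livers, with SDs of 3.98 FPKM in G2A and 9.25 FPKM in WT.

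Birc5 encodes survivin, the passenger subunit that brings Aurkb to centromeres. It had 183, 177 and 211 FPKM in G2A livers 1, 2 and 3, against 254, 254 and 259 FPKM in WT livers 1, 2 and 3. That is a log2 fold change of -0.43 (SE 0.07, limma adjusted p = 0.0902), the largest difference among the 9 genes chosen by function. Cenpm, a subunit of the inner kinetochore, had 22.9, 21.1 and 21.9 FPKM in the G2A livers, against 30.7, 33.4 and 31.7 FPKM in the WT livers. It was the 1 member for which G2A liver 3 lay no nearer to WT than G2A liver 1, at deviations of -0.53 and -0.46 from the WT mean on the log2 scale. Cdc20, the activator that turns the anaphase-promoting complex on at mitotic exit, had 90.4, 91.5 and 97.4 FPKM in the G2A livers, against 110, 123 and 116 FPKM in the WT livers (log2 fold change -0.32, SE 0.06, limma adjusted p = 0.095).

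Per length, the order of mean levels was the same in G2A and WT liver: Birc5, Ccna2, Ccnb2, Ccnb1, Cdc20, Plk1, Aurka, Aurkb, Cdk1 and Cenpm. It ran from 190 ± 17.8 to 22 ± 0.907 FPKM in G2A liver and from 256 ± 3.09 to 31.9 ± 1.37 FPKM in WT liver (SD, n = 3 each). Neighbours whose WT values overlapped were Ccnb2 with Ccnb1, Cdc20 with Plk1, Plk1 with Aurka, and Aurkb with Cdk1. In G2A liver Birc5 with Ccna2 overlapped as well, so the order of these 2 is not resolved there.

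**Figure D1:**
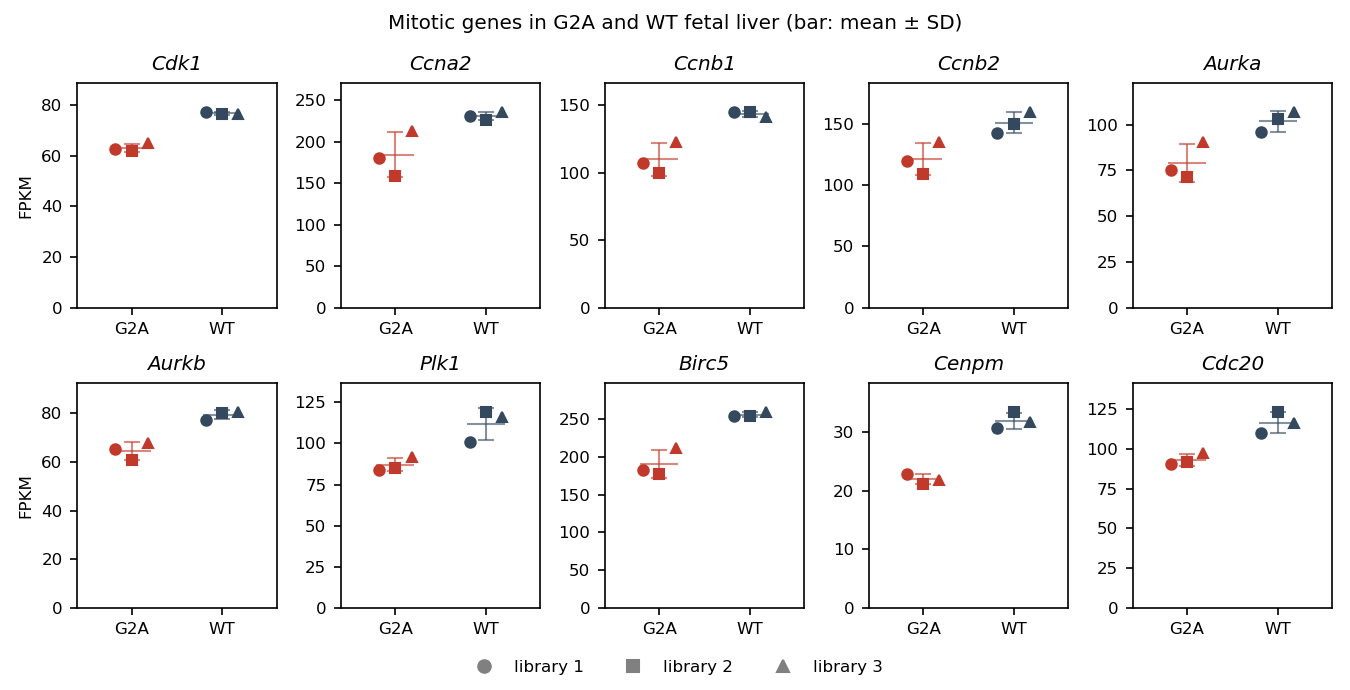
FPKM (vertical axes, from 0) of each mitotic gene in the 3 G2A and 3 WT fetal livers; symbols mark the library number, and bars the mean and SD. In every panel the G2A livers lie below the WT livers, and G2A liver 3 (triangle) is the highest G2A liver for all genes but Cenpm.

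Other genes of the cell cycle were examined as 10 lists holding 159 genes, all tested in both tissues. In liver 137 of the 159 had a log2 fold change below 0, where 47.3% of all genes did. By limma 0 passed the adjusted threshold. At an unadjusted p under 0.05, 82 were lower and 2 higher, as were 1598 and 1173 of all 12938 genes. Without G2A liver 3, 77 were lower and 1 higher at an adjusted p under 0.05, where 12% of all genes were lower and 12.4% higher. The counts of genes with G2A livers below WT livers without overlap are given next, beside the 15.7% of all genes that did the same; 11.8% of all genes were higher without overlap.

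The list of cyclin kinase regulators had 11 of 18 lower without overlap and 1 higher, with a median log2 fold change of -0.16. It also holds the transcription factors Foxm1 and Mybl2 and the MuvB genes Lin9, Lin37, Lin52 and Lin54. Ccnf, an F-box cyclin, had 43.7, 43 and 49.4 FPKM in the G2A livers, against 59.2, 58.7 and 62.8 FPKM in the WT livers (log2 fold change -0.40, limma adjusted p = 0.0902). Cks2, a small subunit of the Cdk1 complex, had 294 to 339 FPKM in G2A livers and 369 to 394 FPKM in WT livers (-0.28, limma adjusted p = 0.122). The 1 gene higher without overlap was Cdkn1b, the cyclin kinase inhibitor p27, named after its values were seen (log2 fold change 0.39). Cdkn1a, the inhibitor p21, likewise named afterwards, was higher on average with overlapping groups. It had 8.63, 11.4 and 9.52 FPKM in the G2A livers, against 8.78, 5.37 and 6.49 FPKM in the WT livers (0.48, limma adjusted p = 0.201).

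Subunits and partners of the anaphase-promoting complex, which Cdc20 activates, had 10 of 20 lower without overlap (median log2 fold change -0.14), with Anapc15 at 36 to 43 FPKM in G2A livers and 49.3 to 49.9 FPKM in WT livers and Anapc5 at 152 to 163 FPKM in G2A livers and 178 to 184 FPKM in WT livers. Genes of the spindle checkpoint, the pathway that holds Cdc20 inactive, had 8 of 13 lower without overlap (median -0.20). Bub3 had 85.3 to 92.4 FPKM in G2A livers and 104 to 109 FPKM in WT livers. Mad1l1 had 15.7 to 18.2 FPKM in G2A livers and 19.5 to 21.2 FPKM in WT livers. The chromosomal passenger and Aurora partners had 5 of 8 (median -0.23), including Tpx2, the activator of Aurka, at 60 to 74 FPKM in G2A livers and 78 to 80.7 FPKM in WT livers. Incenp, the scaffold that holds Aurkb and Birc5, had 53.3 to 65 FPKM in G2A livers and 68.2 to 71.5 FPKM in WT livers.

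Inner kinetochore genes, the neighbours of Cenpm in the centromere, had 12 of 21 lower without overlap (median log2 fold change -0.20). Cenph had 32.9 to 36.2 FPKM in G2A livers and 41.7 to 47.3 FPKM in WT livers (-0.37, limma adjusted p = 0.0936), and Cenpa, the centromeric histone, had 77.2 to 86.1 FPKM in G2A livers and 99.3 to 104 FPKM in WT livers (-0.30, limma adjusted p = 0.0953). Outer kinetochore genes had 10 of 14 lower and 1 higher (median -0.16), with Spc24 of the microtubule-binding Ndc80 complex at 30.7 to 31.5 FPKM in G2A livers and 37.7 to 42.6 FPKM in WT livers and Pmf1 of the Mis12 complex at 70.4 to 81.1 FPKM in G2A livers and 94.6 to 101 FPKM in WT livers. Kinesins and other spindle genes had 14 of 23 lower (median -0.21), with Kif23, a motor of cell division's last step, at 30.4 to 31.6 FPKM in G2A livers and 37.6 to 38.8 FPKM in WT livers. Kif22, a chromosome-bound kinesin, had a log2 fold change of -0.31 (limma adjusted p = 0.0961). Condensin and mitotic chromosome genes had 3 of 10 lower (median -0.11), and the condensin subunits Ncaph and Ncapd2 had log2 fold changes of -0.23 and -0.17 (limma adjusted p = 0.137 and 0.185).

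Lower values were not limited to genes of mitosis. All 24 S phase genes were lower without overlap (median log2 fold change -0.35), and so were 5 of 8 G1 cyclins and kinases (median -0.13). Without G2A liver 3, limma called 22 of the 24 S phase genes lower, beside 12% of all genes. Tk1, thymidine kinase, had 73.7 to 77.7 FPKM in G2A livers and 95.2 to 105 FPKM in WT livers. Ccne1, cyclin E1, had 63.8 to 79.5 FPKM in G2A livers and 86.4 to 103 FPKM in WT livers. Gins1, of the replicative helicase, and Ccnd3, cyclin D3, had log2 fold changes of -0.42 and -0.21 (limma adjusted p = 0.0902 and 0.137). Averaged over the list, deviations from WT on the log2 scale were -0.38, -0.46 and -0.25 for the 10 mitotic genes in G2A livers 1, 2 and 3, and -0.39, -0.47 and -0.22 for the S phase genes.

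Markers of other cells moved in the same livers. Of 19 erythroid markers, 18 had a log2 fold change below 0 and 3 were lower without overlap, Epor, Klf1 and Gata1 (median -0.38), a share close to the 15.7% of all genes. Their summed level was 11100 to 22200 FPKM in G2A livers and 13900 to 21100 FPKM in WT livers, with no marker at 0. Most of each sum was the globin gene Hba-a1, at 8800 to 17900 FPKM in G2A livers and 10600 to 17100 FPKM in WT livers. Averaged like the mitotic genes, the erythroid markers deviated by -0.55, -0.69 and 0.09. In G2A liver 3 the list mean was thus below WT for the mitotic genes and not for the erythroid markers. Epor, Klf1 and Gata1 still lay below every WT liver in that library. The 3 globin genes of primitive red cells, Hbb-y, Hbb-bh1 and Hba-x, went the other way, all above 0 with a median of 1.18 and 0 without overlap; their sums were 22700 to 68000 FPKM in G2A livers and 14600 to 26800 FPKM in WT livers. Globin genes have close copies, so their single levels are uncertain. Mesenchyme markers had 12 of 14 above 0 and 7 higher without overlap, beside 11.8% of all genes, with summed levels of 1480 to 2860 FPKM in G2A livers and 803 to 1130 FPKM in WT livers. Hepatoblast markers had 8 of 14 below 0 (summed 11300 to 16300 FPKM in G2A livers and 11400 to 14100 FPKM in WT livers). Endothelium markers had 10 of 11 above 0 and 5 higher without overlap (summed 173 to 183 FPKM in G2A livers and 148 to 160 FPKM in WT livers). Haematopoietic progenitor markers had 3 of 10 below 0, macrophage markers 4 of 8 and megakaryocyte markers 1 of 7, with summed levels that overlapped between G2A and WT livers. Their part in the mitotic genes' lower values was not tested.

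**Figure D2:**
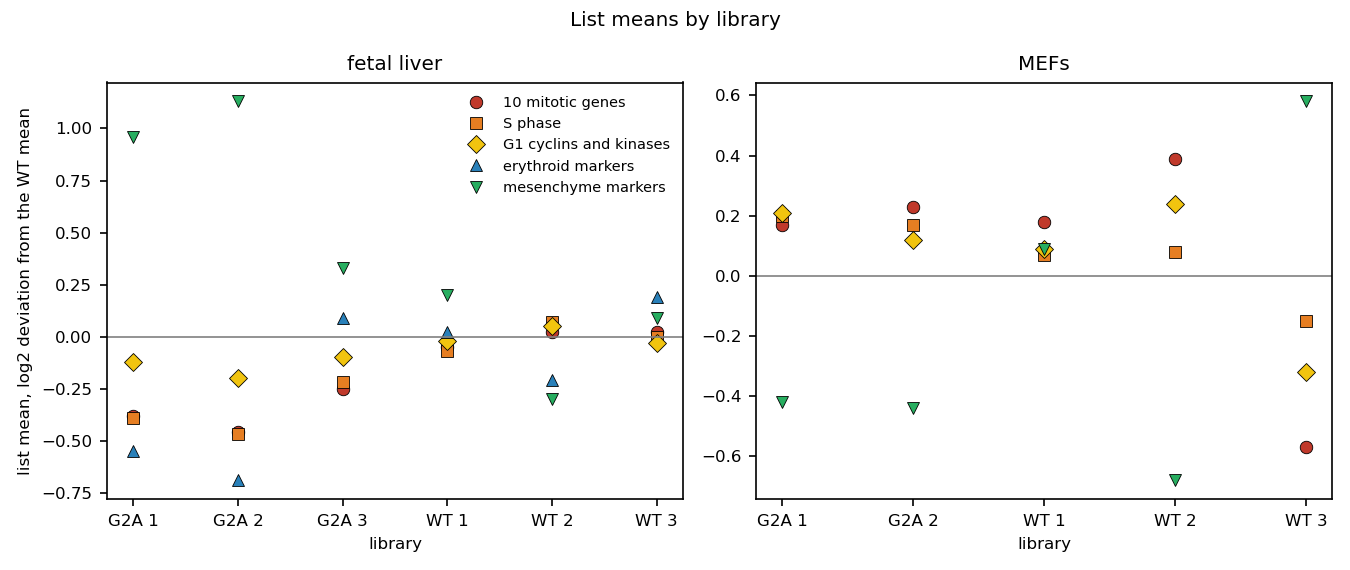
Mean log2 deviation from the WT mean of the tissue (vertical axis) for 5 gene lists in each library (horizontal axis), livers on the left and MEFs on the right; erythroid markers are shown for liver alone. The mitotic and S phase means lie together and below 0 in all 3 G2A livers, while in MEFs the mitotic mean is lowest in WT 3, at -0.57.

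In MEFs, a cultured cell type, all 10 log2 fold changes lay between 0.01 and 0.59 with every library included, as 51.6% of all genes lay above 0, and 7 of the 10 were below 0 without WT MEF 3. By limma 0 of the 10 mitotic genes passed the adjusted threshold and 1 had an unadjusted p under 0.05; 0% of all genes passed in either direction, and 1903 (14.4%) had an unadjusted p under 0.05. edgeR on the recovered reads called 0 members and 0% of all genes. By edgeR 1 member was higher at an unadjusted p under 0.05, as were 801 of 13261 genes. DESeq2 called 0 members, where it called 2.09% of all genes higher and 3.5% lower. By DESeq2 2 members were higher at an unadjusted p under 0.05, as were 1159 of 17935 genes. The median log2 fold change of the members was 0.12, against 0.01 over all genes tested. It was -0.12 without WT MEF 3.

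Ccnb2 had 5618 and 5294 normalized reads in G2A MEFs 1 and 2, against 4390, 4313 and 3289 in WT MEFs 1, 2 and 3. Birc5 had 6107 and 6648 normalized reads in the G2A MEFs, against 4185, 5557 and 3238 in the WT MEFs. These 2 were the members higher in G2A MEFs without overlap, as were 18.9% of all genes, and none was lower without overlap, as 18% of all genes were. Their log2 fold changes were 0.46 for Ccnb2 (95% interval 0.06 to 0.86, limma adjusted p = 0.316) and 0.59 for Birc5 (-0.01 to 1.19, limma adjusted p = 0.348). Without WT MEF 3, Ccnb2 was at 0.33 and passed (limma adjusted p = 0.0432), as did 11.7% of all genes as higher, though not by edgeR on the same libraries (0.32, adjusted p = 0.0521). Birc5 without that library was at 0.40 and did not pass (limma adjusted p = 0.109).

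Cdc20 had 5682 and 6147 normalized reads in the G2A MEFs, against 7500, 9348 and 2841 in the WT MEFs. The G2A values lay inside the WT range, since WT MEF 3 was far below the other WT libraries (log2 fold change 0.02, 95% interval -1.29 to 1.33). Without WT MEF 3 the fold change was -0.50 and passed by limma (adjusted p = 0.0427) and by edgeR (-0.52, adjusted p = 0.0374), beside 11.5% of all genes lower by limma and 12.8% by edgeR. Plk1 had 5872 and 6286 normalized reads in the G2A MEFs, against 6874, 8401 and 2848 in the WT MEFs. Its log2 fold change was 0.15 (-1.04 to 1.34), and -0.32 without WT MEF 3 (limma adjusted p = 0.109). Cdk1 had 10887 and 11230 normalized reads in the G2A MEFs, against 13152, 14187 and 7169 in the WT MEFs. Cdk1 and Plk1 thus share the pattern of Cdc20: G2A below WT MEFs 1 and 2 and above WT MEF 3.

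Ccnb1 followed the same order, with 7014 and 7684 normalized reads in the G2A MEFs, against 8075, 9923 and 4132 in the WT MEFs. So did Ccna2, with 11226 and 11121 in the G2A MEFs, against 11927, 14273 and 6859 in the WT MEFs. Neither passed with WT MEF 3 (log2 fold changes of 0.09 and 0.09) or without it (-0.29 and -0.22, limma adjusted p = 0.154 and 0.201). Aurka had 4855 and 4834 normalized reads in the G2A MEFs, against 4252, 5613 and 2356 in the WT MEFs, with the G2A values between WT MEFs 1 and 2. Aurkb had 3317 and 3510 in the G2A MEFs, against 3115, 3355 and 2493 in the WT MEFs, a narrower spread than Aurka (log2 fold change 0.20, 95% interval -0.19 to 0.60). Cenpm, whose MEF values played no part in its choice, had 1198 and 1233 normalized reads in the G2A MEFs, against 1222, 1239 and 1067 in the WT MEFs. Its log2 fold change was 0.05 with a 95% interval of -0.28 to 0.38 (limma adjusted p = 0.873).

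The members differed in how far WT MEF 3 lay below the other WT libraries. Its level, as a ratio to the mean of WT MEFs 1 and 2, was 0.337 for Cdc20, 0.373 for Plk1, 0.459 for Ccnb1, 0.478 for Aurka and 0.524 for both Cdk1 and Ccna2. The ratio was 0.665 for Birc5, 0.756 for Ccnb2, 0.771 for Aurkb and 0.867 for Cenpm, and its median over all genes tested was 0.99. The D cyclins, named after their values were seen, were also low in that library, Ccnd3 the least so. Ccnd1 had 3376 normalized reads in WT MEF 3 and 13901 and 13038 in WT MEFs 1 and 2, beside 8730 and 7324 in the G2A MEFs. Ccnd2 had 1548 in WT MEF 3 and 5170 and 5467 in WT MEFs 1 and 2. Ccnd3 had 5609 in WT MEF 3 and 7425 and 7029 in WT MEFs 1 and 2. Cdkn1a, the cyclin kinase inhibitor p21, likewise named afterwards, had 6257 in WT MEF 3, 1919 and 3253 in WT MEFs 1 and 2, and 2513 and 3618 in the G2A MEFs.

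**Figure D3:**
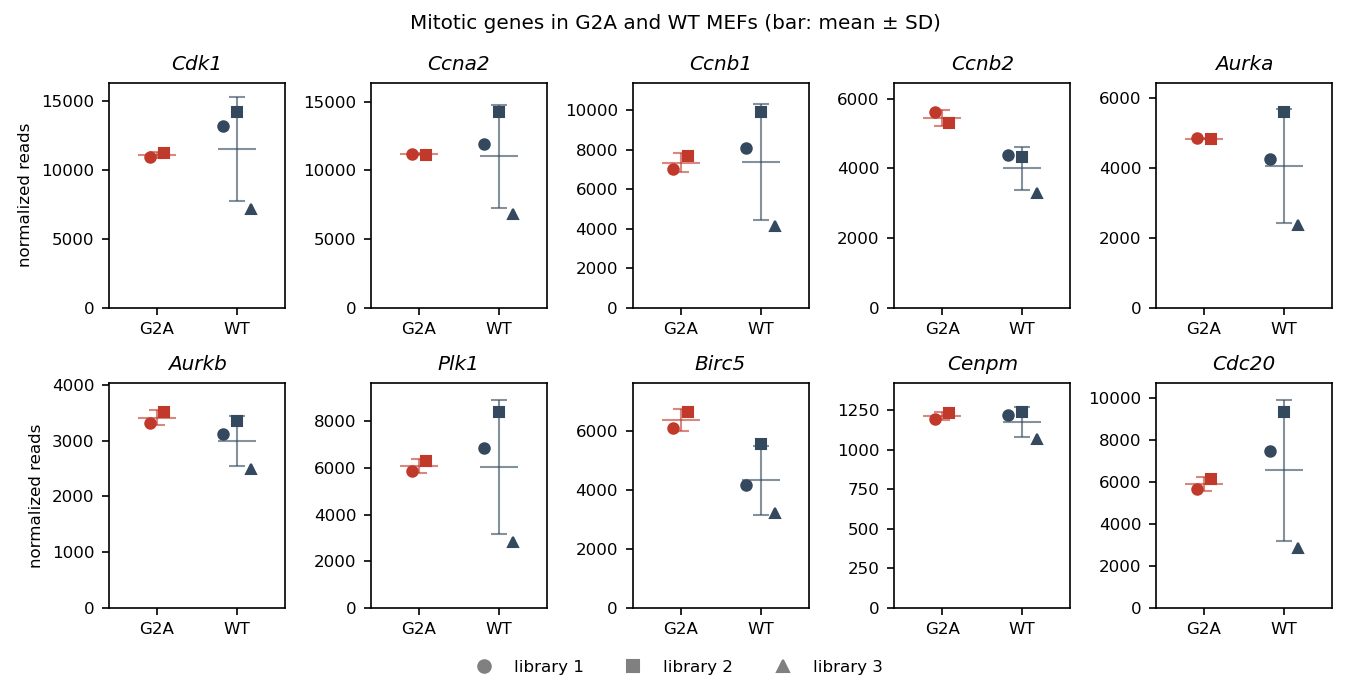
Normalized reads (vertical axes, from 0) of each mitotic gene in the 2 G2A and 3 WT MEF libraries; symbols mark the library number, and bars the mean and SD. WT MEF 3 (triangle) is the lowest library in every panel, and G2A lies above all WT libraries for Ccnb2 and Birc5 alone.

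In the 10 lists of cell cycle genes, 0 of 159 passed in MEFs by limma. At an unadjusted p under 0.05, 11 were higher and 2 lower, as were 913 and 990 of all 13241 genes. edgeR called 0 as well, with the same counts of 11 and 2 at an unadjusted p under 0.05, beside 801 and 1038 of 13261 genes. DESeq2 called 6 higher and 2 lower, where it called 2.09% of all genes higher and 3.5% lower. Without WT MEF 3, limma called 9 higher and 15 lower, where it called 11.7% of all genes higher and 11.5% lower. The counts without overlap that follow stand beside 18.9% of all genes higher and 18% lower. Counts of higher genes in the checkpoint, inner kinetochore and condensin lists lay near the first share. The count of lower genes in the kinase regulator list lay near the second, and no count in the G1 list was above either share. Without WT MEF 3 the median log2 fold change was 0.12 for the S phase list, 0.05 for the anaphase-promoting complex, 0.01 for the inner kinetochore and -0.15 for the kinase regulators. It turned below 0 for the checkpoint (-0.01), passenger (-0.02), outer kinetochore (-0.05), condensin (-0.08), G1 (-0.18) and kinesin (-0.23) lists. S phase genes had 12 of 24 higher without overlap and 1 lower (median log2 fold change 0.22), with Gins2 of the replicative helicase at 3108 and 3126 normalized reads in the G2A MEFs and 1946 to 2319 in the WT MEFs, and Cdc6, which licenses replication origins, at 2082 and 2028 in the G2A MEFs and 1429 to 1655 in the WT MEFs. Outer kinetochore genes had 5 of 14 higher and 1 lower (median 0.14). Zwint, which links the outer kinetochore to the checkpoint, had 9039 and 9205 normalized reads in the G2A MEFs and 4596 to 5531 in the WT MEFs (log2 fold change 0.86, limma adjusted p = 0.26), and Pmf1 had 4765 and 4197 in the G2A MEFs and 3071 to 3387 in the WT MEFs.

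Anaphase-promoting complex genes had 7 of 20 higher without overlap and 0 lower (median log2 fold change 0.13), with Anapc7 at 2591 and 2700 normalized reads in the G2A MEFs and 2036 to 2167 in the WT MEFs and Anapc13 at a log2 fold change of 0.40. The checkpoint list had 3 of 13 higher (median 0.17), with Mad1l1 at 0.32 and Zw10 at 0.30. The passenger and Aurora partners had 3 of 8 higher (median 0.18), with Gsg2, the histone kinase haspin, at 0.32 and Bora, an Aurka cofactor, at 0.22. The inner kinetochore list had 4 of 21 higher and 2 lower (median 0.04), with Stra13 at 0.60 and Apitd1 at 0.43. Kinesins and spindle genes had 0 of 23 without overlap in either direction (median 0.03), with Kif18b at 0.26 and Dlgap5 at 0.37. Condensin genes had 2 of 10 higher and 1 lower (median 0.04), with Ncapg2 at -0.30 and Ncaph2 at 0.13. The G1 list had 1 of 8 higher and 1 lower (median 0.07): Cdk6 had 373 and 429 normalized reads in the G2A MEFs and 68 to 291 in the WT MEFs, and Ccne2 had 623 and 589 in the G2A MEFs and 702 to 828 in the WT MEFs. In the kinase regulator list, which also holds Foxm1, Mybl2 and the MuvB genes, 2 of 18 were higher and 3 lower (median -0.07). Cdkn1b had 2189 and 2062 normalized reads in the G2A MEFs and 3044 to 3927 in the WT MEFs, and Wee1, the kinase that inhibits Cdk1, had 1262 and 1269 in the G2A MEFs and 1620 to 2283 in the WT MEFs (limma adjusted p = 0.269 and 0.282). Mesenchyme markers, which define these cells, were present in every library, with 4 of 13 above 0 and 6 lower in G2A without overlap, and with summed levels of 583942 and 575818 normalized reads in the G2A MEFs and 850643 to 1490390 in the WT MEFs; their part in these results was not tested.

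The difference between the G2A effect in liver and that in MEFs was tested for the 9 members chosen by function. It was below 0 for all 9, from -0.28 (Cdk1) to -1.02 (Birc5) on the log2 scale. By the difference of the limma fold changes, 0 of the 9 passed an adjusted p of 0.05. In that direction 0.868% of 10828 genes passed. The 3 members with the smallest p were Ccnb2, Birc5 and Aurkb. Birc5 was at -1.02 (95% interval -1.62 to -0.42, adjusted p = 0.0822), Ccnb2 at -0.78 (-1.20 to -0.36, adjusted p = 0.0645) and Aurkb at -0.50 (-0.89 to -0.10, adjusted p = 0.14). Without WT MEF 3 these 3 passed, at -0.83, -0.65 and -0.37 (adjusted p = 0.00847, 0.00318 and 0.029), as did 15.5% of all genes in that direction and 14.6% in the other, while Ccnb1, Cdk1 and Cdc20 were at -0.10, 0.03 and 0.18 (adjusted p = 0.642, 0.853 and 0.363).

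**Figure D4:**
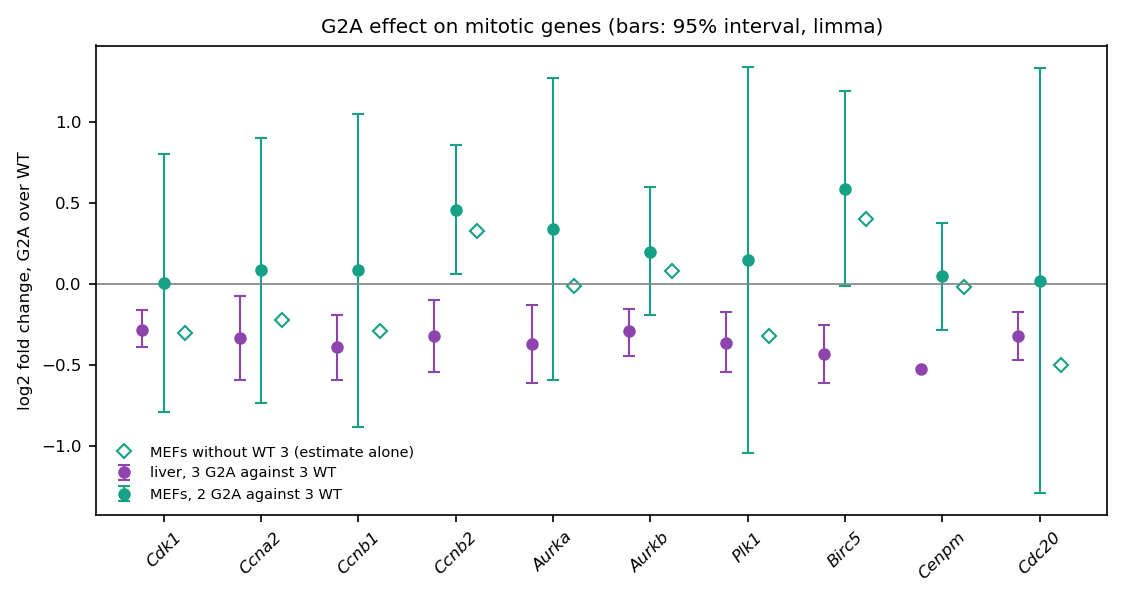
Log2 fold change of G2A over WT (vertical axis) for each mitotic gene, in liver (purple) and MEFs (green), with limma's 95% intervals; open diamonds give the MEF estimate without WT MEF 3, and Cenpm in liver has no interval because it was chosen on that value. Liver values lie between -0.28 and -0.52, while MEF intervals are widest for Cdc20 and Plk1.

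Of 10818 other genes tested in both tissues, the 5 whose log2 deviations over the 11 libraries lay nearest to the mean of the members were Kif20a, Ccnf, Rcc1, Cs and Tpx2, with root mean square distances of 0.0368, 0.0558, 0.0709, 0.0721 and 0.0736. The members themselves lay at 0.0753 (Ccna2) to 0.201 (Cenpm) from their own mean. Kif20a, a kinesin, had log2 fold changes of -0.32 in liver and 0.19 in MEFs, and Cs, the citrate synthase of the mitochondrial matrix, -0.26 and 0.16. Cenpm's distance includes the liver libraries on which it was chosen, so it is a description.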

How the data were processed

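RNA was sequenced from E12.5 fetal livers and immortalized MEFs; per the labels' protocols, reads were trimmed to 50 bp and aligned to mm9 with TopHat 2.1.1, and per the submitters' processing notes Cufflinks 2.2.1 was used. The deposited liver values are FPKM made by the authors, a unit read from the named tool and the values, since the header names none. The deposited MEF values are a normalized signal, found to be whole reads over 1 size factor per library (0.9579 to 1.064; 100% of values whole within 0.01). Annotation, counting tool and strand use: not given in the sources used here.

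Values were put on the log2(value + 1) scale, and genotype was tested tissue by tissue by limma 3.58.1 under R 4.3.3 (variance trend, Benjamini-Hochberg over all genes tested, threshold 0.05). Genes needed 1 FPKM in 3 livers, or 10 normalized reads in 2 MEF libraries. The tissues' effects were compared by their difference over its combined SE, with Satterthwaite degrees of freedom. The count test, edgeR 4.0.16 (quasi-likelihood), and DESeq2 1.42.0 ran on the recovered MEF reads as alternatives. List genes under older symbols were matched through RefSeq synonyms; 1 marker, Ahsp, was not matched. Scripts were tested on simulated data. Members and lists were chosen with earlier results of these data known. Named genes were the members, up to 2 per list by smallest p per tissue where none passed, and the 5 nearest in pattern. Samples were grouped by their titles. Alternatives were pseudocount, filter, scaling, variance trend, library weights, a replicate block, removal of small RNA genes and each library left out; edgeR without WT MEF 3 was chosen after seeing the data.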

Additional observations from a re-analysis of the deposited data

How the results depend on the processing

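The median log2 fold change of the 10 members stayed below 0 in liver under every alternative (-0.42 to -0.30 with 1 library left out, -0.26 after quantile normalization). In MEFs it ran from -0.14 to 0.35 with 1 library left out. Genes past the threshold numbered 3 in liver, 6057 with library weights, 1 without small RNA genes and 2 to 3152 with a library left out, the last without G2A liver 3. In MEFs they numbered 0, 6124 with library weights, 3707 with the replicate block, 1001 with DESeq2 and 0 to 3222 with a library left out, the highest by edgeR without WT MEF 3, where limma called 3075. The difference between tissues called 239 genes, 3692 with the replicate block and 2 to 3261 with a library left out. Library weights called 9 of 9 members in liver and 2 of 10 in MEFs, and leaving out a library called 0 to 9 in liver, 0 to 2 in MEFs and 0 to 3 for the difference. The replicate block called 3 members in MEFs (Ccnb2, Birc5 and Cdc20) and 3 for the difference (Ccnb2, Aurkb and Birc5). Same-numbered livers correlated across genes at 0.18, -0.10 and 0.10 for livers 1, 2 and 3, and differently numbered ones at -0.22 to 0.13. These are correlations of deviations from group means, so they cannot settle whether the numbers mark the littermate pairs. In MEFs the deviations of 2 G2A libraries mirror each other, so such correlations cannot show pairing. The main fits did not take the numbers as pairs. The replicate block did, and called 0 of the 9 members in liver. In MEFs WT 3 has no numbered partner, and the block by construction sets it aside.

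Direction in MEFs turned for 7 members. Cdk1 was at -0.24 with library weights, -0.30 with the replicate block, -0.06 with edgeR and with DESeq2, and -0.32 to 0.19 with a library left out. Ccna2 was at -0.10 with weights, -0.22 with the block and -0.24 to 0.30 with a library left out. Ccnb1 was at -0.14, -0.29 and -0.30 to 0.35 in the same order, and at -0.01 with edgeR and with DESeq2. Plk1 was at -0.18, -0.32 and -0.34 to 0.46, and Cdc20 at -0.34, -0.50 and -0.52 to 0.36, with -0.15 by edgeR and by DESeq2. Aurka was at -0.01 with the block and -0.04 to 0.61 with a library left out, and Cenpm at 0 with weights, -0.02 with the block and -0.03 to 0.09. The difference between tissues turned for Cdk1 (0.03 with the block, -0.46 to 0.03 with a library left out) and Cdc20 (0.18, and -0.68 to 0.18). The cause was not tested, beyond the removal of WT MEF 3 itself. Liver depth is unknown, which limits what can be said of small differences there.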
